A study of Glycine max with 8 samples.

Results

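The middle window of the soybean chromosomes, from 40% to 60% of chromosome length, held 940 of the 15792 chromosomal regions that a protein bound in both biological replicates, or 5.95% (exact 95% interval 5.59% to 6.33%). A region joined peaks of both replicate lists that overlapped by at least 1 bp, and it was a member where the midpoint between its lowest start and highest end fell inside those bounds. Chromosome length was taken as the last peak end on the chromosome in either list. The remaining 14852 chromosomal regions served for comparison, and 80 further regions on unplaced scaffolds were left aside. Among the shared regions position alone set the members apart, and no value of fold, width or spacing was used. Presence in both lists was required of members and other regions alike, so agreement between the lists within regions is conditioned on it.

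The protein is the one encoded by GLYMA.08G357600. Its sites were mapped by chromatin immunoprecipitation and sequencing (ChIP-seq) in embryos of the cultivar Williams 82 at the mid-maturation stage, dissected from seeds of 200 to 250 mg. The 4 ChIP libraries used an antibody raised against a peptide of the protein, and the 4 input libraries held chromatin kept back before that step. Each group consisted of 2 biological replicates with 2 entries each, which were taken here as lanes from the numbering of their titles. All plants were of 1 cultivar and stage, and no group without the protein or without the antibody's target was analysed here, so the specificity of the antibody was not measured.

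In ChIP-seq, DNA crosslinked to a protein is sheared and collected with an antibody, and places where sequenced fragments pile up above the input are called as peaks. The middle of a plant chromosome often lies in or near the pericentromere, a stretch of compact chromatin around the centromere that is rich in repeats and poor in genes, while most genes lie in the arms. Mid-maturation is the stage of seed development at which the embryo lays down storage protein and oil. Positions of centromeres, repeats and genes on the build of the peak lists were not used here, so the middle window is a stretch of the map and not a chromatin class, and no sequence or gene name is given for a region.

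A pair of values recurs below. Fold enrichment is the authors' own ratio for each peak, the fragments overlapping its summit over the local background. The summit pileup, in fragments, and that background were solved from the deposited fold and p. Folds were compared within a list. Because regions of 1 list share a library, no p was computed over them; the spread is given over the 20 chromosomes and beside both lists, and binomial intervals cover counting error only.

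Bound regions were sparse in the middle. The middle windows together spanned 190 Mb and held 4.96 regions per Mb, against 19.6 per Mb in the rest of the chromosomes, a ratio of 3.95. Over the 20 chromosomes the density was 5.06 ± 6.22 per Mb in the middle and 19.8 ± 3.72 per Mb outside it (mean ± SD, n = 20 chromosomes). It was lower in the middle on 19 of 20 chromosomes, with chromosome 13 the exception. The length of DNA inside regions differed likewise, at 2422 bp per Mb in the middle and 9781 bp per Mb elsewhere.

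Chromosome 13 alone supplied 282 of the 940 members, or 30%, although it held 7.36% of all chromosomal regions. Its middle window had 30.7 regions per Mb, more than the 24.0 per Mb in the rest of the same chromosome. That rest was uneven: in 5 stretches of equal length from its start, chromosome 13 held 19, 142, 282, 350 and 370 regions, so its middle was denser than the stretches before it and less dense than those after it. On the other 19 chromosomes the middle held 658 regions at 3.65 per Mb, and the rest of those chromosomes 19.4 per Mb, a ratio of 5.31. The 5.95% share of regions in the middle fell to 4.50% without chromosome 13. Because this chromosome decides several of the pooled values, they are given below with and without it.

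**Figure D1:**
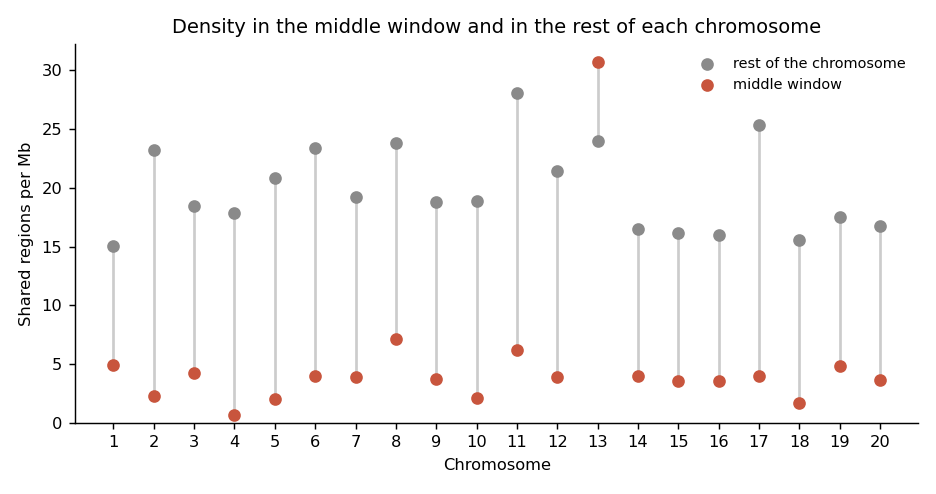
Shared regions per Mb (vertical axis) in the middle window and in the rest of each of the 20 chromosomes (horizontal axis); a line joins both values of a chromosome. The middle is below the rest on 19 chromosomes and above it on chromosome 13, at 30.7 against 24.0 per Mb.

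Among the other 19 chromosomes the number of members ran from 7 to 68, with a median of 35. Chromosome 8 had the most, 68 regions at 7.13 per Mb, followed by chromosome 1 with 56, chromosome 19 with 49 and chromosome 11 with 43. Chromosome 4 had the fewest, 7 regions at 0.669 per Mb, where the rest of the chromosome held 17.9 per Mb. Chromosomes 5, with 17 members, and 18, with 20, came next. Density outside the middle was 26.7 times that inside it on chromosome 4, 10.4 times on chromosome 5 and 10.2 times on chromosome 2, but 3.05 times on chromosome 1 and 3.34 times on chromosome 8.

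Within the middle window the regions of these 19 chromosomes were fewest at the centre. In bins of 2% of chromosome length, 99 regions lay between 40% and 42% (5.49 per Mb), 36 between 50% and 52% (2.00 per Mb), and 54 between 58% and 60% (2.99 per Mb). The bin at 50% to 52% had the lowest density of all 50 bins along these chromosomes. Chromosome 13 had a different profile, with 12 and 11 regions in the bins from 40% to 42% and 42% to 44%. The next bin, from 44% to 46%, held 48 regions, or 52.3 per Mb, and the bins up to 60% held between 22 and 39.

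**Figure D2:**
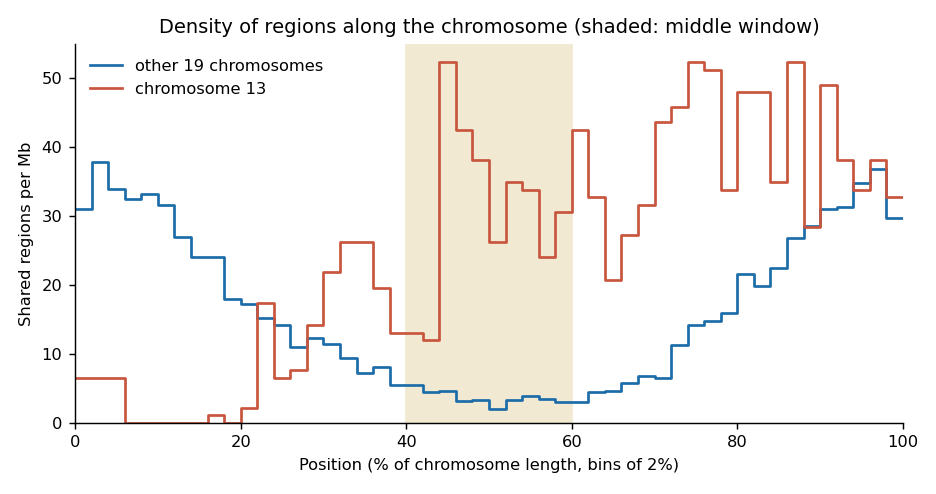
Shared regions per Mb (vertical axis) in bins of 2% of chromosome length (horizontal axis), for chromosome 13 and for the other 19 chromosomes together; the shaded band is the middle window. The 19 chromosomes reach their lowest value, 2.00 per Mb, at 50% to 52%, whereas chromosome 13 rises from 12.0 to 52.3 per Mb at 44%.

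On some chromosomes the members lay mostly to 1 side of the midpoint, and on others they were even. Chromosome 7 had 31 of its members between 40% and 50% and 4 beyond 50%. Chromosome 8 had 58 and 10 on these sides, and chromosome 14 had 33 and 6. The opposite side was the fuller one on chromosome 2, with 2 members before the midpoint and 20 after it, and on chromosome 19, with 11 and 38. Chromosome 13 was nearly even, with 145 and 137, as were chromosomes 1 (30 and 26), 3 (19 and 20), 11 (21 and 22), 16 (12 and 15) and 18 (10 and 10), and chromosome 4 with its 3 and 4.

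**Figure D3:**
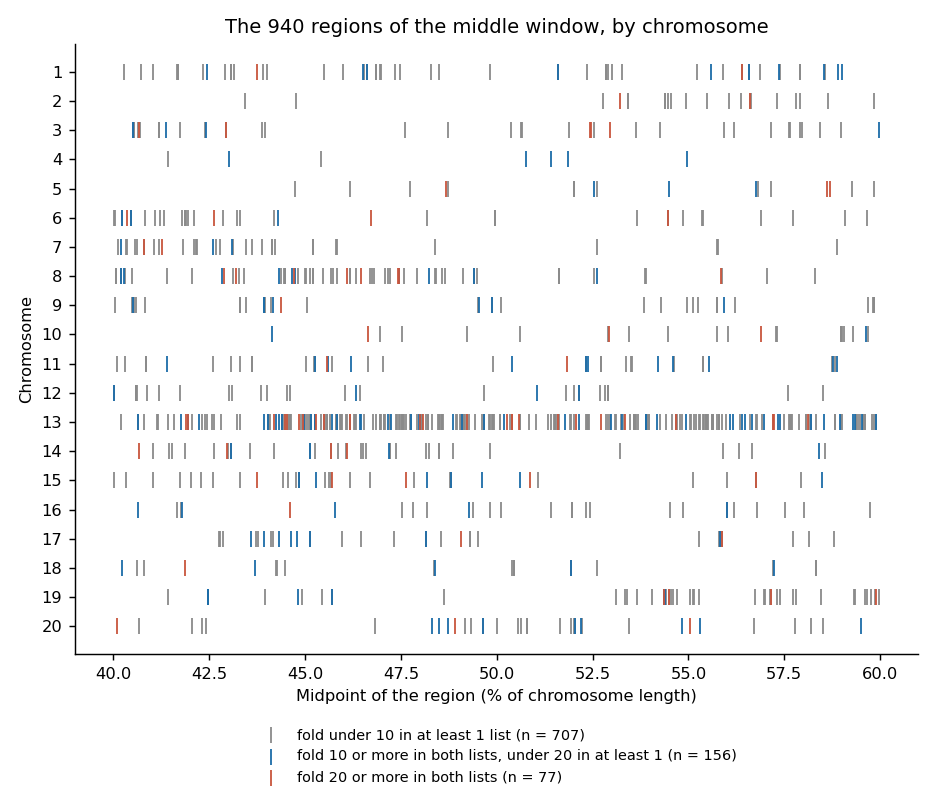
Each of the 940 regions as a tick at its midpoint, in % of chromosome length (horizontal axis), on its chromosome (vertical axis), coloured by fold enrichment. Chromosome 13 is filled along most of the band, chromosome 4 carries 7 ticks, and regions with a fold of 20 or more in both lists occur on chromosomes with few and with many members.

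In bins of 1 Mb lying wholly inside the window, the median count was 33.5 regions on chromosome 13 and 3 on the other chromosomes. The fullest bins were on chromosome 13, beginning at 21000001 (43 regions), 20000001 (42) and 22000001 (40). Outside chromosome 13 the fullest began at 21000001 on chromosome 8 (19 regions) and at 27000001 on chromosome 19 (17). Of the 161 bins on these 19 chromosomes, 26 held no shared region, whereas all 8 bins of chromosome 13 held some.

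Long stretches without binding crossed several middle windows. The longest without a shared region lay on chromosome 2 from 21724667 to 25606930, 3.88 Mb. Next came a gap of 2.80 Mb on chromosome 4, from 23750425 to 26554008. Another gap, of 2.66 Mb, ran on chromosome 18 from 30509694 to 33171140. The last of these also lacked any peak found in a single replicate. Stretches of at least 1 Mb without a shared region, lying wholly inside a middle window, numbered 35 on 19 chromosomes, and 22 of at least 1 Mb on 15 chromosomes lacked a peak in either list. A stretch without a call is no measurement of 0 binding there.

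Where binding was found in the middle, it was about as strong as elsewhere. The median fold enrichment of members was 7.03 in replicate 1 (quartiles 5.19 and 10.9) and 7.27 in replicate 2 (5.49 and 11.8). Other chromosomal regions had medians of 6.93 (5.10 and 10.8) and 7.24 (5.38 and 11.5). The differences of medians, 0.10 and 0.03 in fold, were small beside the spread of that difference over chromosomes, 0.280 ± 1.45 and 0.205 ± 1.24 (mean ± SD, n = 20 chromosomes). Chromosome 4, with only 7 members, had the largest differences, 5.81 and 4.72, which raised these means and SDs. The median difference over chromosomes was -0.002 in replicate 1 and 0.135 in replicate 2. The middle had the higher median in both lists on 8 chromosomes and the lower in both on 7, and the lists pointed opposite ways on 5. Without chromosome 13 the differences were 0 and -0.03.

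Pileups were alike as well, but they were solved from the deposited fold and p and are no independent check. The median summit of a member held 39 fragments in replicate 1 and 30 in replicate 2, and that of another region 39 and 31. Members ranged from 17 to 300 fragments and from 13 to 270, and other regions from 15 to 410 and from 12 to 402. The median −log10 q, the authors' measure of how far a summit stood from its background, was 20.3 and 16.7 for members and 19.8 and 16.7 for other regions.

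Strong and weak regions took much the same share inside and outside the middle. A fold of at least 10 in both lists was reached by 233 members, 24.8% (exact 95% interval 22.1% to 27.7%), and by 24.3% of other regions. A fold of at least 20 in both was reached by 77 members, 8.19% (6.52% to 10.1%), and by 7.07% of the others. At the weak end 84 members had folds under 5 in both lists, 8.94% (7.19% to 10.9%), against 10.1% of the others. Of the 1000 chromosomal regions with the highest mean percentile rank of fold in the 2 lists, 67 were members, which is 7.13% of members and compares with 6.28% of the other regions. Of the first 100, 4 were members, 0.426% of them against 0.646% of the others.

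Chromosome 13 had somewhat higher median folds in its middle than outside it. Its 282 members had median folds of 7.36 and 7.67, and its other 881 regions 6.82 and 7.21. The differences of 0.54 and 0.46 lay inside the SD of that difference over chromosomes. That SD is widened by chromosome 4, with differences of 5.81 and 4.72 on 7 members. The 658 members on the other 19 chromosomes had medians of 6.93 and 7.21.

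The few regions in the middle of chromosome 4 stood out by their fold, with medians of 12.9 and 12.0 against 7.12 and 7.23 in the rest of the chromosome, but they were only 7. Taken in order along the chromosome, the first, from 21673489 to 21673895, had folds of 4.89 and 5.88. The second, from 22492916 to 22493547, was the strongest, at 15.7 and 24.6. The third, from 23749912 to 23750424, had folds of 4.63 and 6.93 and precedes the 2.80 Mb gap. After the gap came 4 regions at similar strength, beginning at 26554009 (13.01 and 10.1), 26899684 (14.2 and 12.0), 27129706 (12.8 and 15.0) and 28753804 (12.9 and 14.1). Thus 5 of 7 had a fold of at least 10 in both lists, and 2 did not reach 7 in either. Each of the 7 lay more than 100 kb from its nearest neighbour.

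On chromosome 5, the next poorest, the 17 members had lower medians than the rest of the chromosome, 5.56 and 7.10 against 7.34 and 7.75. They ranged widely. The lowest in rank, from 21963058 to 21963369, had folds of 3.97 in both lists, and the highest, from 24777661 to 24778680, had 46.4 and 69.4. Including that one, 5 had a fold above 15 in both lists, the others beginning at 20548225 (38.3 and 35.5), 24746143 (22.6 and 22.4), 22176898 (20.1 and 16.7) and 23964526 (17.9 and 19.96). The low medians of this sparse window thus went with a broad range of strengths.

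The strongest member lay on chromosome 13 from 23668336 to 23669237, with folds of 61.4 in replicate 1 and 69.2 in replicate 2 and pileups of 300 and 267 fragments; it ranked 8 among all chromosomal regions. A region on chromosome 2 from 25823444 to 25824417 followed, with folds of 57.9 and 62.7 and pileups of 295 and 242, at rank 19. It lay in a middle window of 22 regions, 91.3 kb from its nearest neighbour. Next were the region just named on chromosome 5, at rank 45, and one on chromosome 14 from 19897450 to 19898338 (46.6 and 64.8), at rank 51. These 4 were the members among the first 100.

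Chromosome 13 held 3 more of the 10 highest. Of these, the region from 23204108 to 23204913 had folds of 38.4 and 53.1, that from 20273936 to 20274721 had 42.0 and 44.3, and that from 26250566 to 26251704 had 41.7 and 44.1. The last places of the 10 went to regions on chromosome 15 from 24630746 to 24631378 (38.1 and 46.2), chromosome 8 from 21316554 to 21317490 (38.5 and 45.6) and chromosome 20 from 26329394 to 26330228 (38.8 and 45.0). The summits of the 10 in the 2 lists lay between 2 and 48 bp apart.

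Nearly every chromosome had at least 1 strong region in its middle. The strongest member of a chromosome ranked among the first 1000 of all chromosomal regions on 18 of 20 chromosomes. Those 1000 are 6.33% of all chromosomal regions, and a middle window held a median of 36 members. Whether the count differs from that of other sets of this size was not tested. The exceptions were chromosome 4, whose strongest ranked 1438, and chromosome 12, where the strongest lay from 16039802 to 16040434 with folds of 14.2 and 25.4 and ranked 1630. The strongest regions of chromosomes 3 and 7 were also among the widest and are given with them. Elsewhere the strongest members began at 20703928 on chromosome 6 (39.5 and 37.9), 30395853 on chromosome 19 (42.0 and 40.6), 32031110 on chromosome 1 (35.3 and 41.9) and 20391951 on chromosome 17 (31.2 and 33.4). Weaker ones began at 27236071 on chromosome 10 (26.9 and 32.0), 17933807 on chromosome 11 (22.6 and 36.6), 22252547 on chromosome 9 (33.0 and 22.3), 16885343 on chromosome 16 (32.2 and 22.9) and 24272920 on chromosome 18 (26.3 and 21.8).

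**Figure D4:**
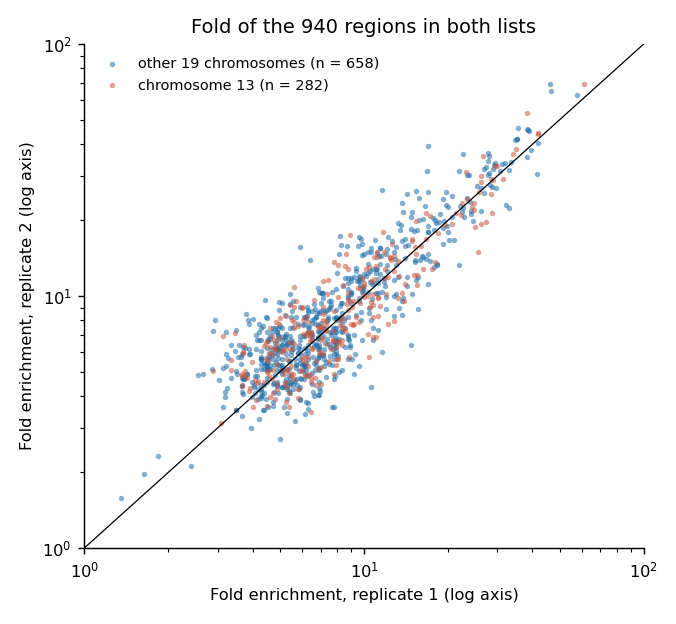
Fold enrichment of the 940 members in replicate 1 (horizontal log axis) and replicate 2 (vertical log axis), 1 point per region; the line marks equal fold. Points of chromosome 13 and of the other 19 chromosomes overlie each other, and the strongest, at 61.4 and 69.2, belongs to chromosome 13.

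The bounds of the middle cut through ordinary regions. The member closest to the 40% bound, on chromosome 15 from 20684948 to 20685510, had folds of 8.41 and 10.9, and the region just outside, on chromosome 12 from 16033164 to 16033500, had 4.74 and 8.55. At the 60% bound the last member, on chromosome 3 from 27403106 to 27403593, had folds of 13.3 and 11.9, and the first region beyond it, on chromosome 6 from 30789294 to 30790181, had 13.4 and 9.47.

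Pooled over chromosomes, both replicates marked the middle about as reproducibly as the rest. Of the 1248 replicate 1 peaks with a midpoint there, 75.4% (exact 95% interval 72.9% to 77.8%) overlapped a replicate 2 peak, against 75.3% of the other chromosomal peaks. Of the 1094 replicate 2 peaks, 86.4% (84.2% to 88.4%) overlapped a replicate 1 peak, against 87.0%. Without chromosome 13 the middle shares were 76.0% in replicate 1 and 85.4% in replicate 2. Over chromosomes the shares in the middle were 74.9% ± 8.52 and 84.4% ± 7.57 (SD, n = 20 chromosomes), and outside it 75.2% ± 1.32 and 87.0% ± 1.198. The wide spread in the middle goes with small numbers. The middle share was above that of the rest on 9 of 20 chromosomes in replicate 1 and on only 5 in replicate 2. The lowest shares were those of chromosome 4, where 7 of 13 replicate 1 peaks and 7 of 11 replicate 2 peaks had a partner.

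Reproducibility followed peak strength in the middle as elsewhere. In replicate 1, 46.7% of middle peaks with a fold under 5 had a partner, 87.5% of those with a fold from 5 to 10, and all 269 with a fold of at least 10. Other chromosomal peaks of these classes had 47.2%, 87.6% and 100%. In replicate 2 the middle peaks had 63.8%, 89.6% and, for all 298 with a fold of at least 10, 100%, and the others 66.5%, 90.0% and 100%.

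Peaks seen in a single replicate were weak. In the middle, 307 replicate 1 peaks had no partner; their fold had a median of 4.22 and their pileup a median of 23 fragments. In replicate 2, 149 had none, with medians of 4.54 and 19. The strongest of them lay on chromosome 12 from 17685029 to 17685324 in replicate 1 (fold 7.75, pileup 37) and on chromosome 1 from 32363138 to 32363455 in replicate 2 (fold 7.23, pileup 27).

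Within members the lists were also alike in strength and position. Across the 940 regions, which share their 2 libraries, the Spearman rho of fold was 0.810, and across other regions it was 0.811. Replicate 1 pileups were a median of 1.24 times those of replicate 2 in the middle and 1.25 times elsewhere, and the genome-wide background was 1.41 times as high in replicate 1. Summits in the 2 lists lay a median of 27 bp apart in members and 29 bp in others, and at most 100 bp apart in 92.8% and 92.7%. The largest distances, 602 bp and 557 bp, belonged to regions on chromosome 13 from 21552981 to 21553932 (folds of 3.72 and 6.39) and from 23676684 to 23677761 (7.95 and 5.31).

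Members had a median width of 450 bp (quartiles 368 and 571 bp), and other regions 453 bp (368 and 576 bp). Very wide regions were fewer in the middle. A width above 1000 bp was found in 12 members, 1.28% (exact 95% interval 0.661% to 2.22%), and in 2.48% of other regions (2.23% to 2.74%). Chromosome 13 held 6 of the 12, or 2.13% of its members, and the other 19 chromosomes 6, or 0.912% of theirs. Regions joining more than 1 peak of a list numbered 6, 0.638% of members, against 1.21% of other regions. The widest member, on chromosome 20 from 28467005 to 28469098, measured 2094 bp, had folds of 17.2 and 13.8 and was 1 of these 6. The next were on chromosome 3 from 23958525 to 23959870 (1346 bp, folds of 35.5 and 46.6) and on chromosome 7 from 18395612 to 18396888 (1277 bp, 41.4 and 30.5).

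Regions in the middle were on the whole far apart, yet some lay in close company. The median distance from a member's summit to that of the nearest shared region was 17.9 kb, and from another region's 9.12 kb. On the 19 chromosomes other than 13 it was 31.7 kb, and on chromosome 13 it was 9.99 kb. No further region lay within 100 kb of 200 of the 658 members on those 19 chromosomes, or 30.4%, against 3.03% of the regions outside the middle. The most isolated member, on chromosome 4 from 28753804 to 28754291, stood 1624 kb from its neighbour.

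At short range the contrast was much smaller. A neighbour within 2 kb was found for 14.4% of members on the 19 chromosomes (exact 95% interval 11.8% to 17.4%), for 14.2% on chromosome 13 (10.3% to 18.8%) and for 17.5% of regions outside the middle (16.9% to 18.1%). Close neighbours count each other, so regions enter these shares mostly in pairs and the intervals are too narrow. The density outside was 5.31 times that inside on those 19 chromosomes, so the share with a close neighbour changed far less than density did. The share outside includes 881 regions of chromosome 13, of which 17.5% had a neighbour within 2 kb. Beyond that the curves parted. Outside the middle 52.6% of regions had a neighbour within 10 kb and 97.0% within 100 kb, against 33.7% and 69.6% of members on the 19 chromosomes. The median distance was longer in the middle on 18 of 20 chromosomes, the exceptions being chromosomes 9, with 7.52 against 8.85 kb, and 18, with 2.93 against 10.8 kb.

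**Figure D5:**
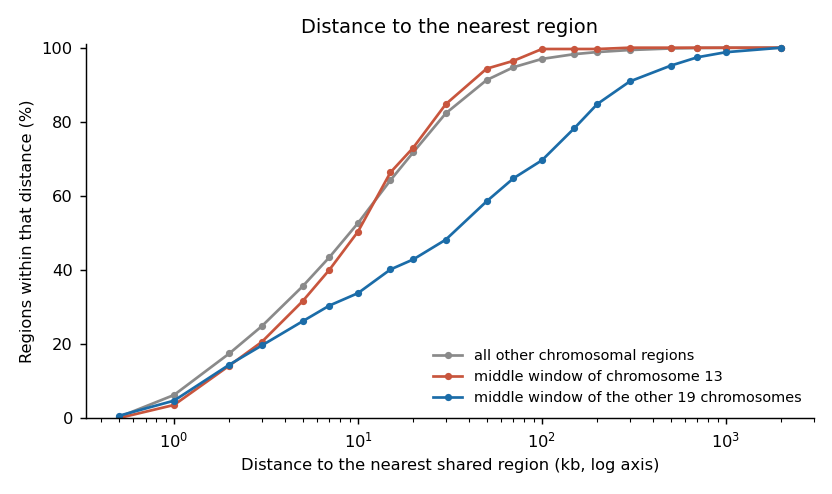
Share of regions (vertical axis, %) whose nearest shared region lies within a given distance (horizontal log axis, kb), for members on chromosome 13, members on the other 19 chromosomes and all regions outside the middle. At 2 kb the 3 curves stand at 14.2%, 14.4% and 17.5%, and at 100 kb at 99.6%, 69.6% and 97.0%.

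Chromosome 18 showed both sides of this. Its middle held 20 regions, 12 of which had a neighbour within 5 kb while 7 had none within 100 kb. Those 12 formed 6 pairs. Pairs began at 25654253 and 25656679 (folds of 5.91 and 15.7 at the first, 5.69 and 4.60 at the second), at 28044978 and 28047253 (3.66 and 4.17, then 13.8 and 21.5), and at 30102478 and 30105813 (12.1 and 12.6, then 8.82 and 6.71). A further pair began at 33171141 and 33172412, at the far side of the 2.66 Mb stretch without a peak, with folds of 6.73 and 8.28, then 14.8 and 21.5. The other two pairs joined weak regions of similar fold: 29246469 and 29249065 (4.18 and 4.26, then 4.71 and 3.67), and 33817917 and 33818931 (1.64 and 1.97, then 2.40 and 2.11), the latter at a high background described below.

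Longer chains, in which no step between successive summits exceeded 5 kb and 3 or more regions took part, occurred 20 times in the middle. They held 63 members, 6.70%, against 12.2% of other regions. The share was 8.87% of members on chromosome 13 and 5.78% of members on the other 19 chromosomes. Chromosome 13 had 8 of the chains and chromosome 6 had 3. The longest, on chromosome 6 from 21477626 to 21486116, had 5 regions over 8.49 kb. In order their folds were 9.83 and 14.5, 7.52 and 5.39, 3.14 and 3.63, 8.26 and 9.40, and 7.17 and 7.49 in replicates 1 and 2. The only chain of 4, on chromosome 13 from 21180278 to 21186323, had folds from 4.61 to 28.9 in replicate 1 and from 6.14 to 28.8 in replicate 2. All 3 regions of the chain on chromosome 19 from 27579610 to 27582848 exceeded a fold of 10 in both lists, the strongest with 28.9 and 31.8. So did all 3 of the chain on chromosome 13 from 22011466 to 22016780, the weakest with 11.1 and 14.3.

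A strong region could also have weak companions close by, though how often was not counted. On chromosome 1 a chain from 32030749 to 32034721 held a region with folds of 35.3 and 41.9 between neighbours with 4.28 and 5.61 on one side and 4.28 and 3.95 on the other. The closest pair of members, on chromosome 17, began at 20492896 and 20493292, with summits 393 bp apart and folds of 5.39 and 4.88, then 7.95 and 6.54.

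The local background was alike inside and outside the middle. The peak caller can take it from input, but its settings are not known here. Its median was 4.52 fragments at members and 4.59 at other regions in replicate 1, and 3.27 and 3.17 in replicate 2. The lowest, genome-wide level of 3.91 fragments in replicate 1 and 2.74 in replicate 2 applied at 27.1% and 26.4% of members, against 26.3% and 26.9% of others. These backgrounds are known at called peaks only and say nothing of the background between them.

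At 4 members, on 3 chromosomes, the background exceeded 5 times the genome-wide level in both lists, 0.426% of members (exact 95% interval 0.116% to 1.09%), against 27 other regions, 0.182%. The highest was on chromosome 15 from 29949430 to 29949984, with backgrounds of 213 and 151 fragments under pileups of 288 and 240, and so with folds of 1.35 and 1.58, the lowest rank of all chromosomal regions. A pair on chromosome 18, from 33817917 to 33818423 and from 33818931 to 33819196, had backgrounds of 156 and 110 and of 60.7 and 45.9 fragments. The remaining one lay on chromosome 9 from 27713402 to 27713853, with 84.1 and 60.3. All 4 lay beyond 55% of their chromosome's length, and none was on chromosome 13. Without them the median folds of members were 7.05 and 7.35.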

How the data were processed

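Per the labels, 4 ChIP and 4 input libraries were sequenced, and the descriptions of both entries of a ChIP replicate name the same peak list, so the entries appear joined. The submitters' processing notes name Bowtie 0.12.7, an aligner, and MACS2, a peak caller. Neither a MACS2 version and its settings nor a build of the coordinates is given in the labels or files used here. The deposited lists hold a start, end and summit offset, a score, a fold enrichment (a ratio at the summit), and −log10 p and −log10 q per peak, all by the authors. They hold 21196 and 18385 peaks, 21078 and 18292 of them on the 20 chromosomes. Read totals were not used, so depth is known only relatively.

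Pileup and background were solved from the deposited fold and −log10 p, with the pseudocount of 1 that MACS2 adds to both; pileups came out whole within 0.01 in 100% of peaks of both lists. If several peaks of a list fell in 1 region, the highest fold among them stood for it. Distances run between region summits, midway between those of the lists. Coordinates count from 1. Python 3.11.15, pandas 2.3.3 and scipy 1.17.1 were used, and the steps were tested on simulated data. Intervals are Clopper-Pearson, at 95%. Named regions were the 10 highest and 3 lowest ranks, the 3 widest, those beside each bound, the strongest per chromosome, chains, high backgrounds and strongest single-replicate peaks; others (chromosomes 4, 5 and 18, the closest pair, the most isolated member, the largest summit distances) were picked after their values were seen. Members, lists and rules were chosen with earlier results of these data known. No relation was tested across samples, since each replicate gives 1 list.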

Additional observations from a re-analysis of the deposited data

How the results depend on the processing

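Of 62 alternatives run over 10 results, 48 stayed within 1.5 times a count or within the binomial interval of a share or median, and 14 did not. Bounds of 45% to 55% gave 450 regions (2.85%), none of the high-background regions (0) and a median nearest distance of 13.9 kb; bounds of 35% to 65% gave 1552 regions (9.83%). The number of regions depends on the width of the window, and the high-background members all lay beyond 55%, outside the narrower one. The distance of 13.9 kb pools chromosome 13 with the others and was not computed without it. Without chromosome 13 the share was 4.50% and the nearest distance 31.7 kb. With only peaks of −log10 q of at least 10 kept in both lists, median folds were 8.94 and 9.55 and the matched share of replicate 1 was 78.7%. This filter takes out weak peaks and possible partners alike, and the part of each in that share was not tested. The nearest peak of either list, single-replicate peaks included, lay a median of 9.81 kb from a member. That distance was not computed for regions outside the middle, so it has no counterpart there. Each list alone gave 1094 to 1248 regions, 5.92% to 5.98% of its peaks, with median folds of 5.91 in replicate 1 and 6.68 in replicate 2. The difference in median fold between the middle and the rest ran from 0 to 0.11 in replicate 1, never below 0, and from -0.03 to 0.21 in replicate 2, where it changed sign. No paired analysis was possible because the lists hold ChIP peaks alone, so the shared replicate numbers of ChIP and input libraries pair no values; differences within chromosomes are a separate matter and stand in the report. Single-replicate peaks held medians of 23 and 19 fragments; the part of depth in them was not tested.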
